A study of Mus musculus with 6 samples.

Results

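Transcripts that mark T cells and natural killer (NK) cells were examined in injured Achilles tendon from mice with and without Cre-driven deletion of Ampkα1 in myeloid cells. The set holds 10 genes chosen by name as markers of these cells, with no threshold on their values: Cd3d, Cd3e, Cd3g, Cd4, Cd8a, Nkg7, Gzmb, Prf1, Ifng and Klrd1. All 10 are among the 18099 genes of the table. RNA sequencing was performed on whole tendon tissue of 3 LysM-Cre; Ampkα1 fl/fl mice (named LysM-Cre mice from here on) and 3 littermate Ampkα1 fl/fl mice (control mice), which carry the floxed allele without Cre. All 6 animals were neonatal, both Achilles tendons had been transected, and tissue was collected 7 days later. Strain background and sex of these mice are not given in the sources used here. LysM-Cre inserts Cre into the lysozyme gene Lyz2 and recombines in macrophages, monocytes and neutrophils, so that T and NK cells are not its targets, and the RNA measured came from every cell type of the tissue.

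T cells recognise antigen through a receptor whose signal passes through the CD3 chains, and the co-receptors CD4 and CD8 separate helper from cytotoxic T cells. NK cells carry no rearranged receptor and read their targets through receptors such as the CD94 and NKG2 pairs. Cytotoxic T cells and NK cells kill with granules that hold perforin and granzymes, and both secrete interferon-γ. Interferon-γ acts through its receptor and the kinases JAK1 and JAK2, and switches on antigen presentation genes, guanylate-binding proteins and the chemokines that attract T cells. The question put to these genes was whether their transcripts, Ifng among them, differed between the same groups in which interferon target genes were compared.

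Interferon-γ signalling acts on promoters through gamma-activated sequences (GAS, searched as TTCNNNGAA), and type I interferon signalling through interferon-stimulated response elements (ISRE, searched as TTTC, any 2 bases, then TTTC). Both were searched on both strands of the 250 bases before an annotated start in RefSeq sequences of GRCm38.p6. For Cd3d, Cd3e and Prf1 that start lies inside the gene span, so their windows include some bases of the gene. The 3 CD3 genes lie together on chromosome 9 within 40.1 kb, with Cd3d 1337 bases from Cd3g and 11682 bases from Cd3e. Cd8a, Cd4 and Klrd1 lie on chromosome 6 (chr6:71373427-71379171, chr6:124864693-124888247 and chr6:129588092-129598775). Prf1 and Ifng lie on chromosome 10 (chr10:61297751-61304684 and chr10:118441046-118445894), Nkg7 at chr7:43437138-43438246 and Gzmb at chr14:56258836-56262334. None of the 10 overlaps another RefSeq gene. The CD3 windows are shown with that of Ifng, and with Cxcl10 and Gbp5 as interferon-γ associated targets described further on. GAS and ISRE matches are in capitals and each window reads 5′ to 3′ on the strand of its gene.
Cd3d: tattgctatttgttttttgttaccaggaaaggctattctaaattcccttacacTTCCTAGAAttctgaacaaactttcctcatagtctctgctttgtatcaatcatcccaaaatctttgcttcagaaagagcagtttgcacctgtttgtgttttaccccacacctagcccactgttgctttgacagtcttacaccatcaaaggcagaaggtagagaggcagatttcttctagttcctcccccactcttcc
Cd3e: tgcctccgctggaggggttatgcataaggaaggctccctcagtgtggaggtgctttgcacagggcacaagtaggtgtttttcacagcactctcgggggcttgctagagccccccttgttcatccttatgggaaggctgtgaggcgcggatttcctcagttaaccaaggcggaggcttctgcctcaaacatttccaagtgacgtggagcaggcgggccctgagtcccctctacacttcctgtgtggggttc
Cd3g: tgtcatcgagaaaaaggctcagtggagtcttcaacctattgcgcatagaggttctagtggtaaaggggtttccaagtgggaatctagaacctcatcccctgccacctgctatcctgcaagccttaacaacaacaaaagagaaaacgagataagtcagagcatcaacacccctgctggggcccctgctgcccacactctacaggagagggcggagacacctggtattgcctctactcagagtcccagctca
Ifng: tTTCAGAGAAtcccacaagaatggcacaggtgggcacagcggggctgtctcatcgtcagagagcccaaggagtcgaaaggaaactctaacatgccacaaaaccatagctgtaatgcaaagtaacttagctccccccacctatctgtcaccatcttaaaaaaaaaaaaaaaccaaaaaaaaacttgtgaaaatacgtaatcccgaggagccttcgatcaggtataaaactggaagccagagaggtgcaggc
Cxcl10: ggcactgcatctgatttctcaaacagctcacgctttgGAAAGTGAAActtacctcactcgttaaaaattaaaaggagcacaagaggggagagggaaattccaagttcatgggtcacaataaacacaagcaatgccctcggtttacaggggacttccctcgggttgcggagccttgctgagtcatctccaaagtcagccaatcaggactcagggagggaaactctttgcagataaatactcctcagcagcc
Gbp5: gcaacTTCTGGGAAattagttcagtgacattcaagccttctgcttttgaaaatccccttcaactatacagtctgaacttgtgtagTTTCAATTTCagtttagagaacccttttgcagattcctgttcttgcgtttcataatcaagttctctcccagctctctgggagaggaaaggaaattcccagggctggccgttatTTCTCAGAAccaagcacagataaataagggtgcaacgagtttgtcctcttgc
The Cd3d window (chr9:44981536-44981785, plus strand) holds a GAS match 188 bases before the start. The Cd3e window (chr9:45009612-45009861, minus strand) and the Cd3g window (chr9:44980432-44980681, minus strand) hold neither motif. The Ifng window (chr10:118440796-118441045, plus strand) holds a GAS match 240 bases before the start. The Cxcl10 window (chr5:92348890-92349139, minus strand) holds 1 ISRE match, and the Gbp5 window (chr3:142496684-142496933, plus strand) holds 2 GAS matches and 1 ISRE match. Windows were available for 8 of the 10 T and NK cell genes, all except Cd4 and Klrd1. Of these, 3 hold a GAS match (Cd3d, Nkg7 and Ifng) and 0 an ISRE match. Over all 32851 windows, 7.02% hold a GAS match and 2.98% an ISRE match. In 15 windows of interferon-γ associated targets 5 hold a GAS match and 9 an ISRE match, and in 17 windows of type I targets 3 and 7. A match is a description of these letters and was not tested as a binding site.

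Libraries held between 18076812 and 19479895 reads, so a count of 3 reads corresponds to 0.154 to 0.166 CPM, which are reads scaled to the size of each library. Intervals of read ratios below cover counting error only. Tendon markers were abundant, with 29222 to 37910 reads of Tnmd, which encodes tenomodulin, and 1912 to 2601 of Scx, the tendon transcription factor scleraxis. Prkaa1, the gene of AMPKα1, had 740, 688 and 690 reads in the control mice and 626, 751 and 652 in the LysM-Cre mice. The groups overlapped (log2 fold change −0.08, edgeR quasi-likelihood adjusted p = 0.744), in RNA of whole tissue, to which cells without Cre also contribute. Lyz2, the Cre locus, had 7378, 7778 and 7372 reads against 9, 15 and 8 (log2 fold change −9.46, edgeR adjusted p = 3.41e-06), so the libraries followed their labels at that locus. The number of Cre alleles per mouse is not given in the sources used here, and 8 to 15 reads left little transcript of either Lyz2 copy.

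T and NK cell transcripts were scarce in both groups. Apart from Cd4, none of the 10 genes had more than 12 reads in any library, and only Cd4 passed the edgeR filter on low counts. Levels between genes were compared in TPM, which are scaled to transcript length and to the library. Over the 6 libraries the mean was 4.93 TPM for Cd4, 1.26 for Klrd1, 1.07 for Cd3g and 1.03 for Nkg7. It was 0.432 for Cd3d, 0.318 for Gzmb, 0.298 for Cd3e, 0.138 for Prf1, 0.08 for Ifng and 0.0717 for Cd8a. Only Cd4 (2.48 to 6.64 TPM) and Klrd1 (0.66 to 2.19 TPM) had separate ranges among neighbours in this order, and every other pair of neighbours overlapped. Of all genes with any reads, 37.3% had a lower mean TPM than Cd4, 24.0% a lower one than Cd3g and 8.6% a lower one than Cd8a. For scale, the pan-leukocyte gene Ptprc, which encodes CD45, had 489 to 698 reads per library.

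**Figure D1:**
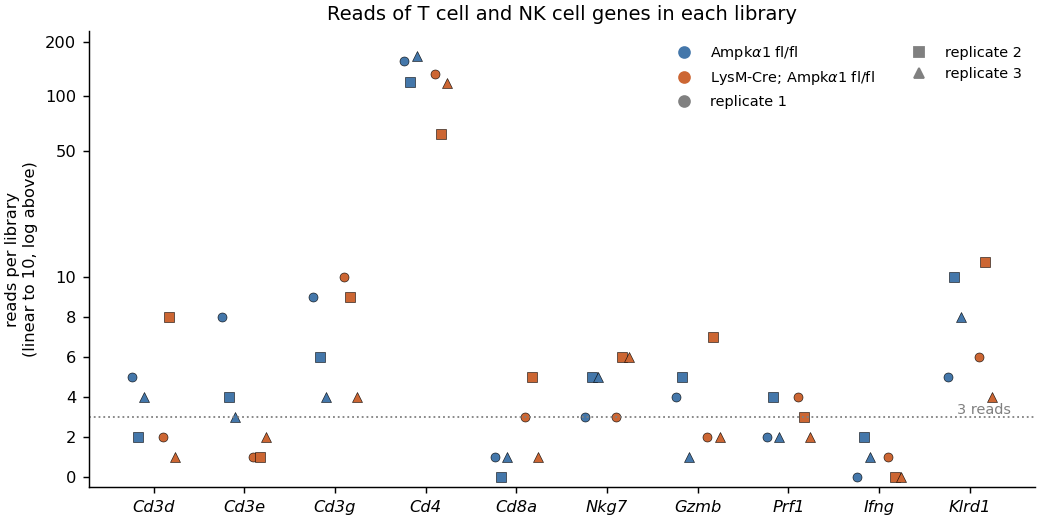
Reads of each T and NK cell gene in each of the 6 libraries, on an axis that is linear up to 10 reads and logarithmic above. Colours are the 2 genotypes, symbols the replicate numbers, and the dotted line marks 3 reads. Cd4 lies at 62 to 167 reads, the other genes at 0 to 12, and Cd3e is the gene whose groups do not overlap.

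The chains of the CD3 complex gave different values. Cd3e, the CD3ε signalling chain, had 8, 4 and 3 reads in the control mice and 1, 1 and 2 in the LysM-Cre mice. Every LysM-Cre library was below every control library, and Cd3e was the only one of the 9 genes below the filter whose groups did not overlap. Among all genes below the filter with at least 1 read, 8.13% did not overlap. The sums were 15 and 4 reads, a ratio of 0.263 (95% interval 0.0636 to 0.826). A two-sided exact permutation test had p = 0.1, the smallest that 3 against 3 libraries allow. In an edgeR fit without the filter, the log2 fold change of Cd3e was −1.82 (SE 0.679, adjusted p = 0.326). Thus 1 of the 10 genes had an unadjusted p under 0.05 there, beside 12.5% of all genes, and 0 passed after adjustment, beside 0.778%. In RNA of a whole tissue, fewer cells of a type and less RNA per cell cannot be told apart.

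The other chains of the complex did not share that pattern. Cd3g, the CD3γ chain, had 9, 6 and 4 reads against 10, 9 and 4, which overlapped (ratio of sums 1.195, 95% interval 0.622 to 2.32). Cd3d, the CD3δ chain, had 5, 2 and 4 reads against 2, 8 and 1, with the highest and the lowest count both in the LysM-Cre group (ratio 0.987, interval 0.388 to 2.51). Without LysM-Cre replicate 2 the log2 ratio of Cd3d moved from −0.02 to −1.32. Summed over the 3 chains, reads were 22, 12 and 11 against 13, 18 and 7, a ratio of 0.834 (interval 0.527 to 1.31). Per 100 reads of Ptprc, the CD3 sum was 3.29, 1.72 and 1.75 against 2.16, 2.63 and 1.43, so the groups also overlapped relative to this leukocyte transcript. Cd247, the ζ chain that carries the signal of the same complex, had 22, 18 and 24 reads against 25, 13 and 20 (log2 fold change −0.16, edgeR adjusted p = 0.864).

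Cd4, the co-receptor of helper T cells, which some mouse dendritic cells and macrophages also express, was the only one of the 10 genes with enough reads for the main test. It had 158, 120 and 167 reads in the control mice and 134, 62 and 119 in the LysM-Cre mice. The lowest library was LysM-Cre replicate 2, and the groups overlapped through LysM-Cre replicate 1, which was above control replicate 2. The mean was 8.02 ± 1.33 CPM against 5.59 ± 1.96 CPM (SD, n = 3 each). The log2 fold change was −0.52 (SE 0.28, 95% interval −1.196 to 0.155), which did not pass the edgeR test (adjusted p = 0.465; 0.898% of the genes tested passed). DESeq2 gave an adjusted p of 0.539, in a test that called 4.77% of the genes. The exact permutation p, two-sided, was 0.2. Without LysM-Cre replicate 2 the log2 fold change was −0.26. Between same-numbered libraries Cd4 was lower in each of 3 pairs. With a replicate block, which pairs libraries by label alone, its log2 fold change was −0.57 (95% interval −1.02 to −0.11, edgeR adjusted p = 0.224). That interval excludes no change where the unblocked one includes it, and it rests on this pairing.

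Cd4 did not follow the CD3 chains across libraries. The TPM of Cd4 was 4.67, 5.01 and 10.5 times that of the highest CD3 chain in the control mice and 3.34, 1.72 and 7.68 times in the LysM-Cre mice. LysM-Cre replicate 2, with the fewest Cd4 reads, had 18 CD3 reads, more than any other library except control replicate 1. Marker lists of other cells that can express Cd4 had lower sums beside it, though not each of their genes did. The summed level of 9 dendritic cell genes was 45.7 to 47.4 CPM against 24.9 to 35.7 CPM, with Clec10a, a lectin of dendritic cells and macrophages, downregulated (log2 fold change −1.32, edgeR adjusted p = 0.0174; 0.0525 with a replicate block and 0.0552 to 0.0985 without any 1 control library or LysM-Cre replicate 1). Of 8 tested dendritic cell genes, 5 had a negative and 3 a positive log2 fold change. The sum of 10 macrophage genes was 897 to 939 CPM against 643 to 793 CPM, with 7 negative and 3 positive log2 fold changes. Of these, edgeR called 0 and DESeq2 called 2, beside 0.898% and 4.77% of all genes tested. At an unadjusted edgeR p under 0.05 there were 4 lower genes and 1 higher, beside 8.55% and 5.97% of all genes tested. The higher gene, Mertk, was named after its value was seen. The sum of 7 pan-leukocyte genes was 284 to 300 CPM against 217 to 279 CPM. LysM-Cre replicate 2, with the fewest Cd4 reads, had the highest dendritic cell sum (35.7 CPM) and pan-leukocyte sum (279 CPM) of its group. Its macrophage sum was 790 CPM, beside 793 and 643 CPM in LysM-Cre replicates 1 and 3. Within that group Cd4 thus did not follow these sums either. The part of these cells in the Cd4 values was not tested.

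Cd8a, the co-receptor chain of cytotoxic T cells, had 1, 0 and 1 reads in the control mice and 3, 5 and 1 in the LysM-Cre mice. The groups touched at 1 read, and the 2 and 9 reads gave a ratio of 4.44 with a 95% interval from 0.919 to 42.3. The exact permutation p, two-sided, was 0.2, and the edgeR fit without the filter gave an adjusted p of 0.49. Its partner chain Cd8b1 was at 0 in 5 of the 6 libraries and had 1 read in LysM-Cre replicate 3. CD8 transcripts were thus near the limit of what these libraries can register, and no difference passed these tests at this depth.

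**Figure D2:**
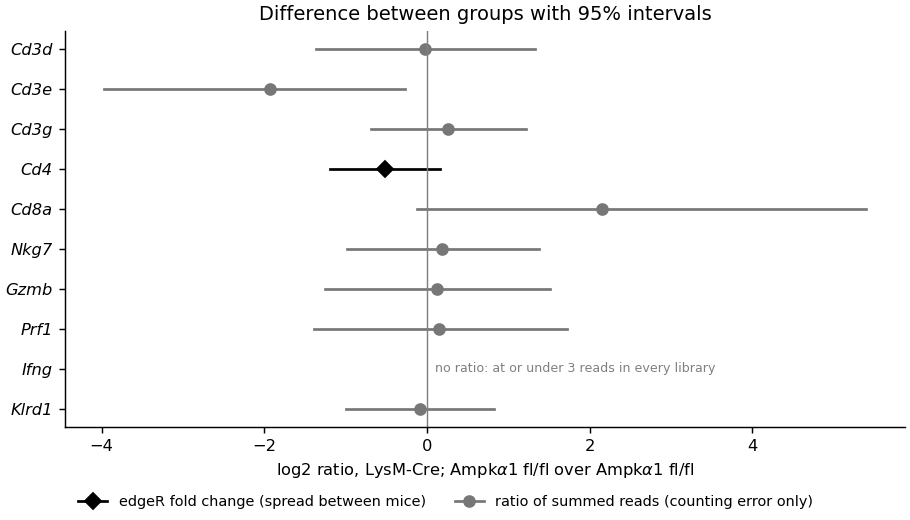
Differences between the genotypes for the T and NK cell genes as log2 ratios of LysM-Cre over control, with 95% intervals. The black diamond is the edgeR fold change of Cd4, grey points are ratios of summed reads whose intervals cover counting error only, and Ifng is not drawn because every library is at or under 3 reads. Of the 8 grey intervals, the one of Cd3e lies below 0 and the others include it.

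Genes of cytotoxic granules and the NK receptor did not separate the groups, and their intervals were wide. Klrd1, which encodes CD94, the shared partner of the NKG2 receptors, had 5, 10 and 8 reads against 6, 12 and 4 (ratio 0.944, interval 0.502 to 1.77). Nkg7, a granule membrane protein of cytotoxic cells, had 3, 5 and 5 reads against 3, 6 and 6 (ratio 1.14, interval 0.506 to 2.60). The groups overlapped for both. Gzmb, the apoptosis-inducing protease granzyme B, had 4, 5 and 1 reads against 2, 7 and 2 (ratio 1.09, interval 0.419 to 2.85). Prf1, the pore-forming protein perforin, had 2, 4 and 2 reads against 4, 3 and 2 (ratio 1.11, interval 0.380 to 3.31). Leaving out a single library turned the sign of the log2 ratio for Cd3d, Klrd1, Nkg7, Gzmb and Prf1, and for none of Cd3e, Cd3g and Cd8a. Summed over these 4 cytotoxic genes, reads were 14, 24 and 16 in the control mice and 15, 28 and 14 in the LysM-Cre mice. The ratio of 1.04 had an interval from 0.705 to 1.54.

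Receptors and regulators around these genes were also low. Ncr1, which encodes the NK receptor NKp46, had 2, 2 and 5 reads against 2, 2 and 0, and Klrb1c, which encodes NK1.1, had 6, 5 and 10 against 6, 12 and 2. Klrc1, the NKG2A partner of CD94, had 8, 2 and 5 reads against 5, 11 and 1. The groups overlapped for each. Eomes and Tbx21 encode the T-box factors of cytotoxic lymphocytes. Eomes had 1 read in control replicate 2 and in LysM-Cre replicate 1 and none elsewhere, and Tbx21 had 6, 4 and 8 reads against 3, 2 and 11. Klrk1, the activating receptor NKG2D, had 21, 18 and 23 reads against 24, 26 and 18 (log2 fold change 0.11, edgeR adjusted p = 0.891). Gzma, granzyme A, was the exception among them, with 1 read in every control library and 4, 5 and 7 reads in the LysM-Cre libraries. Its groups did not overlap and the ratio of 3 to 16 reads was 5.27 (interval 1.51 to 28.2), but the edgeR fit without the filter gave an adjusted p of 0.171. Gzma overlaps Cdc20b, and reads of the pair cannot be told apart where strand was not counted.

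Related genes were read from 4 lymphocyte lists (T cell receptor signalling, T helper and regulatory T cell, NK cell receptor, cytotoxic granule and death ligand), in which 0 genes were called by edgeR or DESeq2. Without LysM-Cre replicate 2, 1 gene passed the filter and was called by edgeR, Ctla4, whose sum is uncertain. In the T cell receptor signalling list, 11 of 19 genes were tested, 0 were called and 0 had an unadjusted p under 0.05, where 5.97% of all genes tested were higher and 8.55% lower at that p. The groups overlapped for each of the 11, where 20.4% of all tested genes did not overlap. Genes of this list had up to 280 reads in a library, and the part of T cells in these reads was not tested. The median log2 fold change of the 11 was −0.06, beside −0.002 for all genes. The largest changes were −0.58 for the adaptor Skap1, 0.43 for the kinase Zap70, 0.35 for the interleukin-7 receptor Il7r and −0.21 for the adaptor Lcp2, with adjusted p values from 0.531 to 0.669 (edgeR). In the T helper and regulatory T cell list, 5 of 15 genes were tested, 0 were called and 0 had an unadjusted p under 0.05. Their median was −0.64, with Il2ra, the interleukin-2 receptor α chain, at −0.87, the T helper factor Gata3 at −0.86, Tnfrsf4, which encodes OX40, at −0.64 and the costimulator Icos at −0.43 (edgeR adjusted p 0.459 to 0.695).

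In the NK cell receptor list, 4 of 17 genes were tested and 0 were called or had an unadjusted p under 0.05, with a median log2 fold change of 0.13. Il2rb, the β chain that binds interleukin-15, was at 0.38 (edgeR adjusted p = 0.568). In the cytotoxic granule and death ligand list, 7 of 14 were tested and 0 were called, with a median of 0.08. Tnfsf10, the death ligand TRAIL, had an unadjusted p of 0.025 and a log2 fold change of 0.74, and Cst7, the granule inhibitor cystatin F, a p of 0.0386 and −1.22 (edgeR adjusted p 0.253 and 0.306). Ccl5, a chemokine of activated T cells, was at −0.43, and Gzme, a granzyme with near-identical neighbours among which reads may be split, at 0.37. The constant regions of the T cell receptor, 7 genes, were not analysed here. In the list of homing receptors and ligands, 8 of 15 were tested and 0 were called by edgeR. Cxcl16, the ligand of the homing receptor CXCR6, had 360, 293 and 313 reads against 514, 516 and 411, groups that did not overlap (log2 fold change 0.56, edgeR adjusted p = 0.0871, DESeq2 adjusted p = 0.00552).

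Ifng itself was at the floor. It had 0, 2 and 1 reads in the control mice and 1, 0 and 0 in the LysM-Cre mice, all at or under 3 reads, so no fold is given. The exact Poisson interval of the sum reached 8.77 of 55272933 reads in the control group and 5.57 of 56409021 in the LysM-Cre group, which allows up to 0.158 and 0.0992 CPM. A difference in interferon-γ transcript within these limits was therefore not detectable at this depth. Il12a and Il12b, the subunits of interleukin-12, which induces interferon-γ, had 0 to 6 reads per library. Both were chosen after their values were seen.

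Of the interferon-γ inducers and their receptors, 8 of 12 genes were tested and 0 were called by edgeR, with a median log2 fold change of 0.15. Ebi3, a subunit shared by interleukin-27 and interleukin-35, had 151, 179 and 191 reads against 109, 102 and 90, groups that did not overlap (log2 fold change −0.81, SE 0.146, edgeR adjusted p = 0.0664, DESeq2 adjusted p = 0.00571). Il18r1, a receptor chain for interleukin-18, was at 0.35, Il15ra at 0.27 and Il18 at −0.27 (edgeR adjusted p 0.418 to 0.726). The receptor of interferon-γ was abundant and did not pass the test. Ifngr1, the ligand-binding chain, had 1412, 1443 and 1281 reads against 1374, 1383 and 1198 (log2 fold change −0.08, edgeR adjusted p = 0.665). Ifngr2, the signalling chain, had 1064, 1009 and 1014 against 1181, 1122 and 1067 (0.11, adjusted p = 0.386). The groups overlapped for Ifngr1. For Ifngr2 every LysM-Cre library was above every control library, where 20.4% of all tested genes had groups that did not overlap.

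Downstream of the receptor, the kinases, the feedback inhibitor and the transcription factor Irf1 did not pass the test. Jak1 and Jak2 were at log2 fold changes of 0.05 and 0.02, and Socs1, the feedback inhibitor, at −0.24 (edgeR adjusted p 0.676 to 0.924). Many of the genes named here beside the 10, among them Cd247, Tnfrsf4, Il18, Ebi3, Jak1, Cxcl10, Cxcl16, Ciita and Nlrc5, overlap another RefSeq gene, and reads of such pairs cannot be told apart where strand was not counted. Irf1 had 499, 432 and 430 reads against 513, 598 and 540 (0.26, edgeR adjusted p = 0.261). Its LysM-Cre libraries were all above its control libraries, so the groups did not overlap.

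Most targets associated with interferon-γ had higher values in the LysM-Cre mice, and the source of these values was not tested. Of 19 tested, 18 had a positive log2 fold change, where 49.4% of all genes tested did, and the median was 0.91. The groups of 16 did not overlap, 15 of them higher and 1 lower, where 20.4% of all tested genes did not overlap. By edgeR, 1 was called, beside 0.898% of all genes tested. At an unadjusted p under 0.05 there were 14 in the higher direction and 1 in the lower, beside 5.97% and 8.55% of all genes tested. DESeq2 called 13, beside 4.77%. Without LysM-Cre replicate 2, edgeR called 12 of the 19, among them Iigp1, Cxcl10, Gbp5 and Tgtp1. It called 2 without LysM-Cre replicate 3. Without LysM-Cre replicate 1 or any 1 control library, and with a replicate block, it called 0. The gene called in the main test was Nlrc5, the activator of MHC class I genes, with 107, 108 and 97 reads against 237, 207 and 285. Its log2 fold change was 1.21 (edgeR adjusted p = 0.0230, and 0.0611 with a replicate block). Iigp1, an immunity-related GTPase, had 297, 275 and 234 reads against 845, 610 and 1400 (1.81, adjusted p = 0.0530). Cxcl10, a chemokine for CXCR3-bearing T and NK cells, had 80, 62 and 43 against 251, 123 and 234 (1.70, adjusted p = 0.0757), and Gbp5 was at 1.54 (adjusted p = 0.127). Tgtp1, at 3.57 (adjusted p = 0.142), has a near-identical neighbour with which reads may be shared. Ciita, the activator of MHC class II genes, chosen after its values were seen, had 74, 54 and 45 reads against 51, 80 and 60, which overlapped (0.13, adjusted p = 0.873).

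Targets associated with type I interferon gave values in the same direction. All 20 tested had a positive log2 fold change, with a median of 0.65. The groups of 9 did not overlap, where 20.4% of all tested genes did not. EdgeR called 0, beside 0.898% of all genes tested. At an unadjusted p under 0.05 there were 12, all higher, beside 5.97% of all genes tested. DESeq2 called 8, beside 4.77%. Without LysM-Cre replicate 2, edgeR called 12 of these 20. Without any other 1 library, and with a replicate block, it called 0. Ifit3 was at 1.66, Ifi44 at 1.47 and Ifit1 at 1.39 (edgeR adjusted p 0.0914 to 0.196). The direction of the targets was known from earlier results of these data, so their counts are a description. Whether these lists tell the interferons apart was not tested. ISRE matches were in 60.0% of the windows of interferon-γ associated targets and in 41.2% of those of type I targets.

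**Figure D3:**
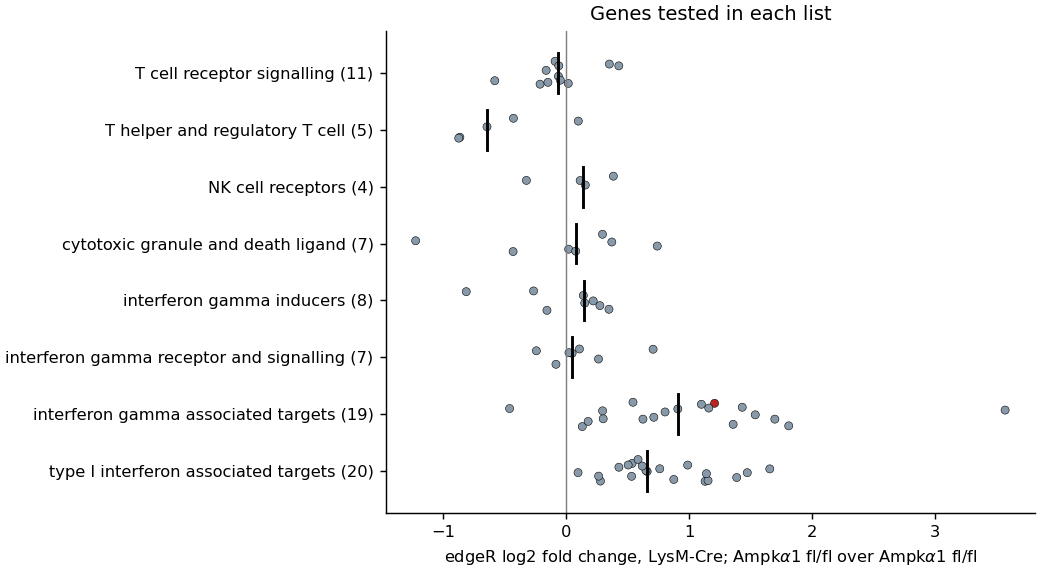
EdgeR log2 fold changes, LysM-Cre over control, of the tested genes of 8 lists. Each point is a gene, bars are medians, numbers in parentheses are the genes tested, and the red point is the called gene (Nlrc5). The T cell receptor signalling list lies around 0 with a median of −0.06, and the interferon-γ associated targets lie to its right with a median of 0.91.

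Within the LysM-Cre group, the library with the most T and NK cell reads was not the one with the highest targets. The 9 genes other than Cd4 summed to 37, 38 and 29 reads in the control mice and 32, 51 and 22 in the LysM-Cre mice, 104 against 105 in all (ratio 0.997, interval 0.753 to 1.32). The mean log2(CPM + 0.5) of the interferon-γ associated targets was 3.33, 3.37 and 3.19 against 4.18, 3.8 and 4.54. LysM-Cre replicate 2, with 51 reads, had the lowest target level of its group, and LysM-Cre replicate 3, with 22 reads, the highest. For the type I targets the means were 3.33, 3.52 and 3.41 against 4.36, 3.53 and 4.44, and LysM-Cre replicate 2 was next to the control libraries. With 3 libraries a group these orders are a description, and a change in interferon protein or in cells outside the tissue was not measured.

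**Figure D4:**
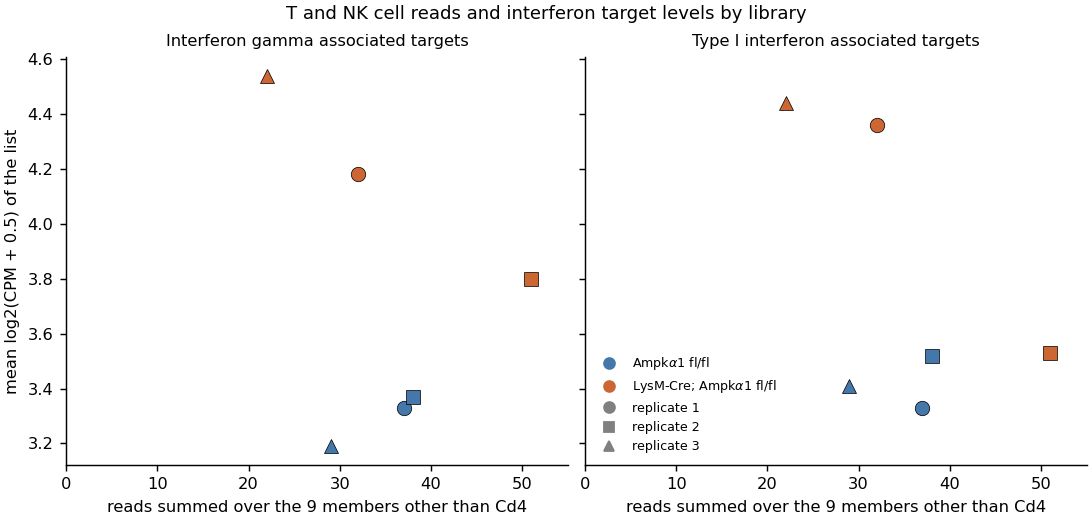
Mean log2(CPM + 0.5) of the interferon-γ associated targets (left) and the type I targets (right) against the reads summed over the 9 T and NK cell genes other than Cd4, for each library. Colours are genotypes and symbols replicate numbers. The LysM-Cre libraries lie above the control libraries on the left, and the one with 51 reads is the lowest of its group in both panels.

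Marker lists of other cell types were also summed beside these values. Mast cell genes summed to 371 to 526 CPM against 159 to 252 CPM, with the chymase Cma1 downregulated (edgeR adjusted p = 0.0431). That adjusted p was 0.0063 with a replicate block, and 0.0577 to 0.194 without any 1 library other than LysM-Cre replicate 2. Of 8 tested mast cell genes edgeR called 1 lower and DESeq2 4, beside 0.898% and 4.77% of all genes tested. With a replicate block edgeR called 3, and 0 or 1 without 1 library. Erythroid genes summed to 1997 to 2973 CPM against 676 to 983 CPM. EdgeR called 6 of 7 tested erythroid genes lower, beside 0.898% of all genes tested. It called 1 with a replicate block and 0 to 4 without 1 library. Skeletal muscle genes ranged from 243 to 4080 CPM against 1349 to 11880 CPM, and neutrophil genes from 11.6 to 53.7 CPM against 13.1 to 56.9 CPM. Both sums overlapped, with 0 genes of either list called by edgeR or DESeq2 and 0 at an unadjusted p under 0.05. All 15 tested skeletal muscle genes had a positive log2 fold change, with a median of 1.81. Of 8 tested neutrophil genes, 7 were positive and 1 negative, with a median of 0.57. B cell genes, the remaining lymphocyte markers, summed to 5.92 to 6.50 CPM against 4.32 to 6.10 CPM, with 0 of 3 tested genes called by edgeR or DESeq2 and 1 at an unadjusted p under 0.05. Their part in the T and NK cell values was not tested.

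**Figure D5:**
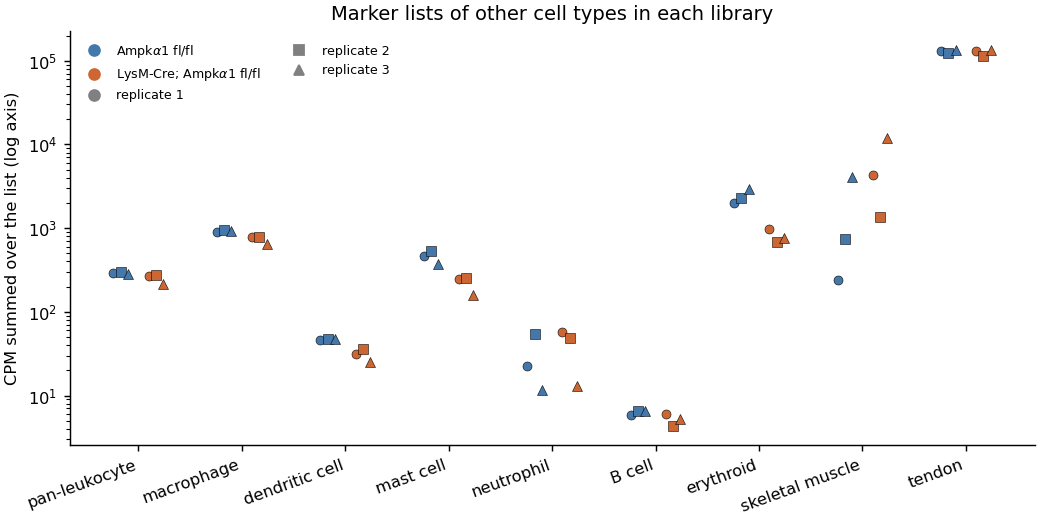
Summed CPM of marker lists of other cell types in each library, on a log axis. Colours are genotypes and symbols replicate numbers. Dendritic, macrophage, mast and erythroid sums are lower in every LysM-Cre library than in every control library, skeletal muscle and neutrophil sums overlap between the groups, and the tendon sum is 114700 to 134100 CPM throughout.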

How the data were processed

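Libraries were made and sequenced at BGI from total RNA of 3 mice per genotype, and groups and replicate numbers come from the sample labels. The authors deposited, for 65053 RefSeq transcripts, read numbers estimated per library (expected counts, not normalized) and TPM values scaled to transcript length. The submitters' processing notes name GRCm38.p6; the aligner, the counting tool and the use of strand are not given in the sources used here. In addition, 6 FPKM columns, 6 columns of normalized counts and 8 of averages were not used.

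Estimated counts were summed per gene and rounded to whole reads (18099 genes, 99.72% matched to a symbol). The test was edgeR 4.0.16 under R 4.3.3 (TMM, filterByExpr, quasi-likelihood F test, no block, since the study names unpaired tests elsewhere) on 14261 genes, adjusted by Benjamini-Hochberg with a threshold of 0.05. The standard error is the log2 fold change divided by the square root of F. CPM use TMM-scaled totals. Genes below the filter are given as reads with the ratio of group sums and its exact conditional (Clopper-Pearson) 95% interval, and a floor of 3 reads. Single genes also had an exact permutation test on log2(CPM + 0.5). Replicates are separate mice. Fits were tested on simulated data. DESeq2 1.42.0, limma 3.58.1 on log2(TPM + 0.1), other scalings and filters, the replicate number as a block, and leaving out each library were alternatives. Deviations from group means of same-numbered libraries correlated between 0.118 and 0.31 (3 pairs). Those of differently numbered libraries correlated between −0.55 and 0.501, so these values do not single out the pairing by number. Numbers were treated as pairs in that alternative only. The pairing comes from the labels alone.

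Members and lists were chosen with earlier results of these data known. Named genes are the 10 members, Prkaa1, Lyz2, listed partners, the interferon-γ receptor list, and in other lists each called gene and up to 4 tested genes with the largest change. Not every gene the rule allows is named, and 1 is not reported here.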

Additional observations from a re-analysis of the deposited data

How the results depend on the processing

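The count of members called was 0 under each of the 14 alternatives, but 12 of them tested only Cd4 or Cd4 and Klrd1, so this count says little on the other members; 2 tested all 10. The count of genes called, 128 in the edgeR test, was 680 with DESeq2, 61 with limma on log2(TPM + 0.1), 47 with the replicate number as a block (38 of them among the 128) and 37 with the block and no filter, a pairing of choices added after seeing the data. Leaving out 1 library gave between 8 and 276, with 10, 8 and 24 without control replicates 1, 2 and 3 and 12, 276 and 60 without LysM-Cre replicates 1, 2 and 3. With the block, the log2 fold change of Cd4 was −0.57 (edgeR adjusted p = 0.224); leaving out 1 library gave −0.71 to −0.26. Nlrc5 was not called with the block or without any control library or LysM-Cre replicate 1 (adjusted p 0.0611 to 0.136); the block ended the calls of Clec10a and of 5 of 6 erythroid genes. Ebi3 passed with DESeq2. Signs turned, with 1 library left out, for Klrk1 (−0.0070 to 0.25), Cd244a (−0.50 to 0.032), Slamf7 (−0.14 to 0.33), Jak2 (−0.036 to 0.080), Ifnar2 (−0.054 to 0.011) and Tyk2 (−0.021 to 0.12), none of them called. The causes were not tested. Depth limits 9 of the 10 members, which had 0 to 12 reads per library.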

Other observations

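Ctla4, an inhibitory receptor of regulatory and activated T cells, had 2, 1 and 1 reads in the control mice and 26, 6 and 15 in the LysM-Cre mice. It was chosen after its values were seen. The groups did not overlap, with a ratio of 11.6 (95% counting interval 4.24 to 44.3) and an adjusted p of 0.0933 in the edgeR fit without the filter. It passed the filter with some libraries left out, with an adjusted p of 0.0417 without LysM-Cre replicate 2 and 0.198 to 0.319 without a control library. The table lists 6 Ctla4 transcripts, among them repeated entries of the same accession. A pair of these repeated entries held the same estimate, 10.63 reads each in LysM-Cre replicate 1 and 2.5 each in replicate 3, so the sum can hold the same reads more than once and is uncertain. 

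Of 20 other interferon genes, 3 are in the table and 1 had reads. Ifnz, interferon zeta, chosen after its values were seen, had 0 reads in the 3 control libraries and 4, 5 and 4 in the LysM-Cre libraries. Its groups did not overlap, where 8.13% of genes below the filter with at least 1 read did not. The LysM-Cre mean was 1.43 times a control floor of 3 reads per library, a ratio without an interval. The edgeR fit without the filter gave an adjusted p of 0.137. The interferon alpha genes and Ifnz have close copies, among which reads may be split. Among other interferon receptors and signalling genes, 6 were tested and 0 called by edgeR, with Stat2 at a log2 fold change of 0.52 and Irf9 at 0.35 (adjusted p 0.123 and 0.216; both unadjusted p under 0.05; DESeq2 called 1).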
